A study of Mus musculus with 4 samples.

Results

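A set of 10 genes was followed, which held the macrophage cytokine genes Tnf, Il1a, Il6, Il10 and Il1rn and the NF-κB subunit genes Nfkb1 and Rela. The others were the feedback genes Nfkbia, Nfkbiz and Tnfaip3. All 10 were chosen by symbol for their known roles, with earlier results of these data known. Of these 10, 9 had a row in the deposited table of 13834 genes and 8 passed the filter on low counts that 12542 genes passed. Il6 had no row, so its expression is not analysed here, and Il10 was too low to test. The comparison was between peritoneal macrophages of 2 Dnmt1fl/fl and 2 Dnmt1KO samples (4 libraries). All mice carried the floxed Dnmt1 gene, which GEO's labels call wild type where it stands without Cre, and the Dnmt1KO mice also expressed Cre recombinase from the LysM promoter, which is active in myeloid cells generally. The isolation protocol of the study used 10-week-old mice 3 days after an intraperitoneal injection of thioglycolate broth, an irritant that draws leukocytes into the abdominal cavity; the cells were then placed in culture, and no lipopolysaccharide is named for the sequenced samples. The labels do not say whether a sample is a single mouse or a pool, so p-values measure the spread between these samples.

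NF-κB is a family of dimeric transcription factors, with the Rela product (p65) and the Nfkb1 product (p50, made from the precursor p105) as the best known pair in macrophages. In the resting cell the IκB proteins hold these dimers in the cytoplasm, and stimuli such as bacterial lipopolysaccharide, TNF or IL-1 release them. The dimers then switch on cytokine genes and, at the same time, genes for their own inhibitors and modulators. Nfkbia encodes IκBα, which captures NF-κB again; Tnfaip3 encodes A20, a ubiquitin-editing enzyme that stops the upstream signal; Nfkbiz encodes the nuclear IκBζ, which modulates a subset of targets such as Il6.

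Because the inhibitor genes are known to be bound by the factor they restrain, their promoters are shown with the NF-κB consensus (the 10-base κB element) in capitals. RefSeq promoter windows on GRCm38.p6, running from 250 bases before to 50 bases after a start site, were found for 7 of the 10 genes, not for Il10, Nfkb1 and Nfkbiz. The consensus was searched on both strands, and a position that matched on both counted once. A match stood in 2779 of all 32851 windows (8.46%), and among the genes followed in windows of Nfkbia, Tnfaip3 and Il6. The Nfkbia stretch is chr12:55492648-55492696 and the Tnfaip3 stretch is chr10:19015411-19015555, both on the minus strand and both ending at the base before the RefSeq start site. For Tnfaip3 this stretch lies inside the GENCODE gene, whose outermost start, at 19015657, is farther upstream than the RefSeq start used here. The Nfkbia match begins 29 bases before the start, and those of Tnfaip3 begin 125 and 12 bases before it.
Nfkbia: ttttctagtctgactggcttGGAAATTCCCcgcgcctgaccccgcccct
Tnfaip3: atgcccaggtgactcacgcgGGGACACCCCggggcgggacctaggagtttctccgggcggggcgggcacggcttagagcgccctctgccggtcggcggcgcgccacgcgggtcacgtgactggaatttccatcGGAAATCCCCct
Windows with 2 or more matches, as the one shown for Tnfaip3, were 1.22% of all, and the second RefSeq window of Tnfaip3 held none. The windows of Tnf, Il1a, Rela and Il1rn held no match in these letters.

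Since Dnmt1 methylates cytosine in CpG dinucleotides, the CpG content of the same 300-base windows is given as a property of the genes. Rela had the most, with 31 CpG, followed by the window of Tnfaip3 shown above with 22 (its second window had 6), Nfkbia with 15 and Tnf with 11, against a median of 7 over all windows. The cytokine genes Il1a, with 5 CpG, Il6, with 3, and Il1rn, with 1 to 5 in its 3 windows, lay below that median. Methylation itself was not measured in these samples.

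The targeted gene was examined first. Dnmt1 was measured at 86.5 and 67.0 CPM (counts scaled to a common library size after TMM normalization) in Dnmt1fl/fl replicates 1 and 2, and at 37.0 and 42.7 CPM in Dnmt1KO replicates 1 and 2. Its log2 fold change was -0.95 (95% interval -1.54 to -0.35), with an adjusted p of 1.00 from edgeR's quasi-likelihood test, although both Dnmt1KO libraries lay below both Dnmt1fl/fl libraries. Libraries held 20228071 to 24198943 counts, and 3 counts, taken as the detection floor, correspond to 0.120 to 0.151 CPM. The macrophage genes Adgre1 and Csf1r were at 700.2 CPM or more in every library. Lyz2, the gene in whose locus the LysM-Cre driver sits, was at 29522 and 28579 CPM in Dnmt1fl/fl and at 11348 and 15740 CPM in Dnmt1KO. Dnmt1KO replicate 1 stood apart: it held the highest or the lowest level of 78.4% of all genes tested. It also had the most RNA of neutrophil genes, with 7 of 9 such genes listed and a summed level of 737 CPM against 185 CPM in Dnmt1KO replicate 2 and 182 to 253 CPM in Dnmt1fl/fl. The neutrophil granule genes Camp and Ngp had no row, and Ly6g was at 3.99 CPM in Dnmt1KO replicate 1 and at 0.0424 to 0.319 CPM in the other libraries. Genes of resident large peritoneal macrophages (4 of 4 listed) summed to 146 and 224 CPM in Dnmt1fl/fl and to 104 and 136 CPM in Dnmt1KO replicates 1 and 2, most of it from Timd4 and Icam2, which were lower in both Dnmt1KO libraries. The other 2, Gata6 and Lyve1, overlapped between genotypes and were highest in Dnmt1KO replicate 2, at 5.80 and 10.6 CPM. B cell genes (5 of 5 listed) summed to 128 CPM in Dnmt1KO replicate 1 and to 309 to 508 CPM in the other libraries. In bulk samples, fewer cells of a type and less RNA per cell cannot be told apart.

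Across the genes followed, Il1a, Nfkbiz and Tnfaip3 were the ones whose Dnmt1KO libraries both lay below both Dnmt1fl/fl libraries, while the other 5 genes tested overlapped between genotypes. The sum of the resident macrophage genes given above was likewise lower in both Dnmt1KO libraries, through 2 of its 4 genes, Timd4 and Icam2, and its part in the levels of Il1a, Nfkbiz and Tnfaip3 was not tested. The adjusted threshold of 0.05 in edgeR was passed by 0 of the 8, and by 0 of all 12542 genes (0.0%). At an unadjusted p under 0.05 edgeR and DESeq2 each called 0 of the 8, and limma-voom called 1, Il1a. Over all genes, edgeR called 35 (0.279%), DESeq2 39 (0.311%) and limma-voom 40 (0.319%). Of the 8 genes, 7 had a negative log2 fold change and 1, Rela, a positive one, with a median of -0.29 against 0.0046 over all genes tested. The log2 fold change was 0.2 or more in size in 4 of the 8, each with a lower fitted level in Dnmt1KO (Tnf, whose genotypes overlapped, Il1a, Nfkbiz and Tnfaip3), and in 41.5% of all genes. Genotypes did not overlap in 3 of the 8 and in 16.7% of all genes, and Dnmt1KO was the lower genotype without overlap in those 3 and in 8.56% of all genes. With 8 genes chosen by name and with earlier results of these data known, no test was made of these shares.

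**Figure D1:**
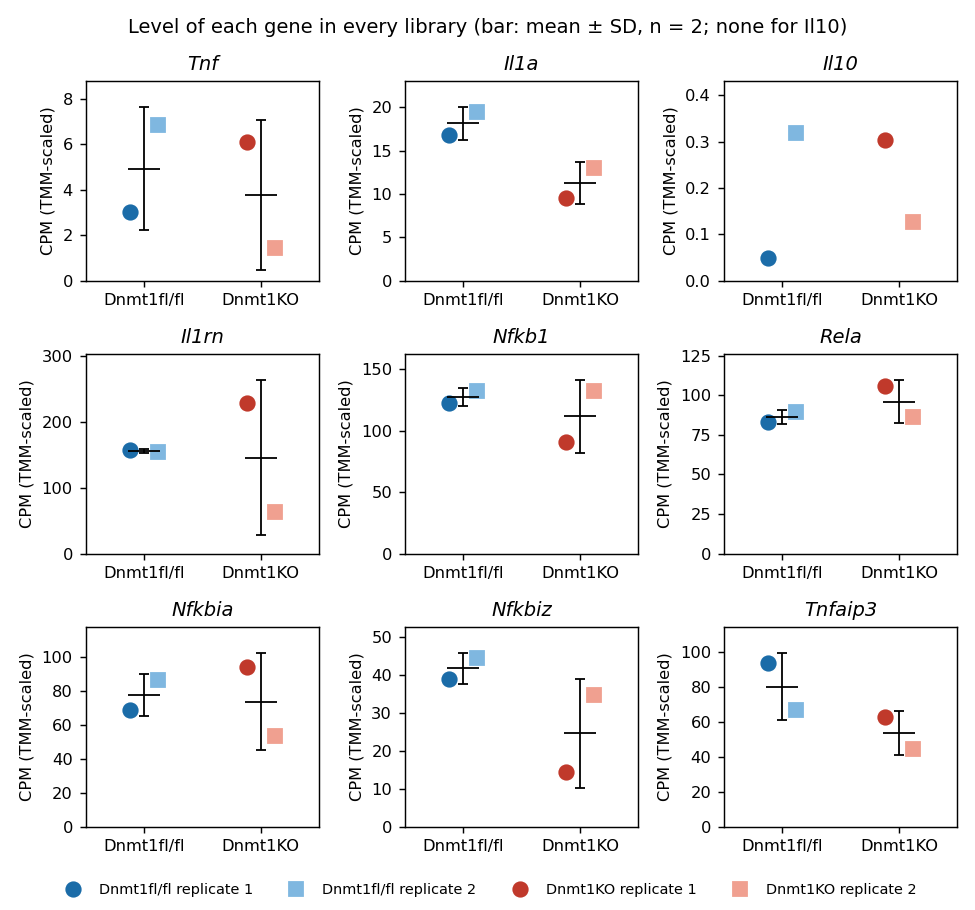
Level of each gene in CPM (linear axis from 0) in the 4 libraries, coloured by genotype with circles for replicate 1 and squares for replicate 2; the horizontal mark and bar give mean ± SD of 2 libraries, and are left out for Il10, which is near the detection floor. Il1a, Nfkbiz and Tnfaip3 are the panels in which both Dnmt1KO points lie below both Dnmt1fl/fl points, and in Il1rn and Tnf the Dnmt1KO points lie on either side of at least 1 Dnmt1fl/fl point.

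Il1a, on chromosome 2 from 129299610 to 129309972 (GRCm38, GENCODE M21), encodes IL-1α, a cytokine that is stored in the cell and acts as an alarm when it is released. It was measured at 16.8 and 19.5 CPM in Dnmt1fl/fl replicates 1 and 2, and at 9.54 and 13.0 CPM in Dnmt1KO replicates 1 and 2. Both Dnmt1KO libraries were lower, and Dnmt1KO replicate 1 was the lowest of the 4. The genotype means were 18.2 ± 1.90 CPM (SD, n = 2) in Dnmt1fl/fl and 11.3 ± 2.45 CPM (SD, n = 2) in Dnmt1KO. The log2 fold change was -0.69 (standard error 0.28, 95% interval -1.38 to 0.0056), larger than the pooled SD of 0.24 between replicates on the log2 scale. Its unadjusted p of 0.0513 from edgeR's quasi-likelihood test was the lowest among the genes followed, with an adjusted p of 1.00. Exons of the antisense gene Gm14023 cover 11.2% of the exon bases of Il1a. Since the use of strand in the counting is not stated, reads of that stretch cannot be assigned to either gene. Gm14023 itself had no row, where rows are listed only for genes above 0 in every sample.

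Il1rn, on chromosome 2 from 24336853 to 24351494, encodes the IL-1 receptor antagonist, which occupies the IL-1 receptor without triggering it. It was the most variable of the 8 genes after Tnf, with a 3.65-fold ratio of its highest to its lowest library, at 158 and 154 CPM in Dnmt1fl/fl replicates 1 and 2, and at 229 and 62.7 CPM in Dnmt1KO replicates 1 and 2. The Dnmt1KO libraries thus held both the highest and the lowest level, while the Dnmt1fl/fl libraries were nearly equal. Its log2 fold change was -0.09 (95% interval -1.53 to 1.34, adjusted p = 1.00 from edgeR), and -0.37 in limma-voom and under the replicate block, against a difference between the Dnmt1KO replicates of -1.86 on the log2 scale (replicate 2 less replicate 1). Neutrophil genes were highest in the same Dnmt1KO replicate 1, at 737 CPM in sum, and their part in the level of Il1rn was not tested. Without Dnmt1KO replicate 1 the log2 fold change of Il1rn was -1.31, and without Dnmt1KO replicate 2 it was 0.56 (adjusted p = 0.268 and 0.106 from edgeR).

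The RNA of the antagonist was set against that of IL-1α as the ratio of Il1rn to Il1a within a library, each per kilobase of exon. Such a ratio does not depend on scaling between libraries. This ratio was 3.35 and 2.81 in Dnmt1fl/fl replicates 1 and 2, and 8.57 and 1.72 in Dnmt1KO replicates 1 and 2. Il1rn exceeded Il1a in all 4 libraries, and the Dnmt1KO libraries again lay on both sides of the Dnmt1fl/fl libraries. Il1b, the gene of the cytokine IL-1β, was not part of this ratio. Its levels were 8.18 and 34.7 CPM in Dnmt1fl/fl replicates 1 and 2, and 33.5 and 7.5 CPM in Dnmt1KO replicates 1 and 2. The receptor gene Il1rap, which encodes the signalling partner of the IL-1 receptor, was at 21.4 and 18.5 CPM in Dnmt1fl/fl and at 11.3 and 17.7 CPM in Dnmt1KO replicates 1 and 2. Both Dnmt1KO libraries were below both Dnmt1fl/fl libraries, with a log2 fold change of -0.46 (adjusted p = 1.00 from edgeR). Il1r2, the decoy receptor of IL-1, was named after its values were seen: it reached 22.1 CPM in Dnmt1KO replicate 1 and 1.57 to 5.30 CPM in the other libraries.

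Tnf, on chromosome 17 from 35199381 to 35202007, encodes the cytokine TNF, which is made early after stimulation. It was low, at 62 and 172 counts or 3.02 and 6.86 CPM in Dnmt1fl/fl replicates 1 and 2, and 121 and 34 counts or 6.11 and 1.44 CPM in Dnmt1KO replicates 1 and 2. High and low libraries occurred in both genotypes, with Dnmt1fl/fl replicate 2 and Dnmt1KO replicate 1 as the high ones. The genotype means were 4.94 ± 2.71 CPM (SD, n = 2) in Dnmt1fl/fl and 3.77 ± 3.30 CPM (SD, n = 2) in Dnmt1KO. Between genotypes the log2 fold change was -0.40 (standard error 0.75, 95% interval -2.27 to 1.48, adjusted p = 1.00 from edgeR), smaller than the pooled SD of 1.03, and -0.71 in limma-voom. The direction rested on single libraries: it was 0.33 without Dnmt1fl/fl replicate 2, 0.30 without Dnmt1KO replicate 2 and -1.78 without Dnmt1KO replicate 1. Of 8449 other genes tested with a mean of at least 10 CPM, the closest to Tnf over the 4 libraries, by the distance between centred log2 levels, were the neutrophil-attracting chemokine gene Cxcl2 (distance 0.36), Marcksl1 (0.36) and Lpcat2 (0.40). Cxcl2 was at 21.0 and 32.6 CPM in Dnmt1fl/fl replicates 1 and 2, and at 38.7 and 9.23 CPM in Dnmt1KO replicates 1 and 2.

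Il10, on chromosome 1 from 131019845 to 131024974, encodes an anti-inflammatory cytokine and was close to the limit of detection. It had 1 and 8 counts in Dnmt1fl/fl replicates 1 and 2, and 6 and 3 counts in Dnmt1KO replicates 1 and 2. The exact Poisson 95% intervals, which cover counting error only, ran from 0.0253 to 5.57 counts in Dnmt1fl/fl replicate 1 and from 3.45 to 15.8 in replicate 2. They were 2.20 to 13.1 and 0.619 to 8.77 counts in Dnmt1KO replicates 1 and 2. The intervals of the genotypes overlapped, which is not a test of a difference. Il10 was too low to test, and no fold change is given. The receptor gene Il10ra was well expressed, at 210.8 and 253 CPM in Dnmt1fl/fl and 208.5 and 208.4 CPM in Dnmt1KO, lower in Dnmt1KO in both libraries, with a log2 fold change of -0.15 (adjusted p = 1.00 from edgeR).

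The subunit genes varied less between libraries than the cytokine genes, with ratios of the highest to the lowest library of 1.46 for Nfkb1 and 1.27 for Rela against 2.04 or more for the cytokine genes. Rela, on chromosome 19 from 5637483 to 5648130, encodes p65, the subunit with the main activating domain. It was at 83.0 and 89.1 CPM in Dnmt1fl/fl replicates 1 and 2, and at 106 and 86.4 CPM in Dnmt1KO replicates 1 and 2. Dnmt1KO replicate 1 was the highest and the other 3 libraries lay close together, so the genotypes overlapped. Its log2 fold change was 0.16 (standard error 0.23, 95% interval -0.41 to 0.72, adjusted p = 1.00 from edgeR), near the pooled SD of 0.15. It was 0.0037 without Dnmt1KO replicate 1 and 0.30 without Dnmt1KO replicate 2. Its ratio between libraries was the smallest among the 9 genes listed.

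Nfkb1, on chromosome 3 from 135584655 to 135691547, encodes the p105 precursor of p50. It was at 123 and 133 CPM in Dnmt1fl/fl replicates 1 and 2, and at 90.9 and 133 CPM in Dnmt1KO replicates 1 and 2. Only Dnmt1KO replicate 1 departed from the other libraries. The log2 fold change was -0.19 (standard error 0.27, 95% interval -0.85 to 0.47, adjusted p = 1.00 from edgeR), and without Dnmt1KO replicate 1 it was 0.054. The ratio of Nfkb1 to Rela per kilobase of exon was 0.376 and 0.380 in Dnmt1fl/fl replicates 1 and 2, 0.219 in Dnmt1KO replicate 1 and 0.391 in Dnmt1KO replicate 2. The other 3 libraries were alike in this ratio and Dnmt1KO replicate 1 was lower.

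Tnfaip3, on chromosome 10 from 19000910 to 19015657, encodes A20. It was at 93.9 and 66.7 CPM in Dnmt1fl/fl replicates 1 and 2, and at 62.7 and 44.7 CPM in Dnmt1KO replicates 1 and 2. Both Dnmt1KO libraries were below both Dnmt1fl/fl libraries, although Dnmt1KO replicate 1 lay close under Dnmt1fl/fl replicate 2. The genotype means were 80.3 ± 19.2 CPM (SD, n = 2) in Dnmt1fl/fl and 53.7 ± 12.7 CPM (SD, n = 2) in Dnmt1KO. The log2 fold change was -0.58 (standard error 0.29, 95% interval -1.30 to 0.14) against a pooled SD of 0.34, with an unadjusted p of 0.0958 and an adjusted p of 1.00 from edgeR. Its lowest library was Dnmt1KO replicate 2, whereas that of Il1a was Dnmt1KO replicate 1, the library rich in neutrophil genes. Its log2 fold change was -0.84 without Dnmt1KO replicate 1, -0.35 without Dnmt1KO replicate 2 and -0.31 without Dnmt1fl/fl replicate 1.

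Nfkbiz, on chromosome 16 from 55811375 to 55838899, encodes IκBζ. It was at 38.9 and 44.7 CPM in Dnmt1fl/fl replicates 1 and 2, and at 14.4 and 34.9 CPM in Dnmt1KO replicates 1 and 2. Both Dnmt1KO libraries were lower, Dnmt1KO replicate 1 by far and Dnmt1KO replicate 2 by little. Its log2 fold change of -0.76 (standard error 0.43, 95% interval -1.82 to 0.30, unadjusted p = 0.128 and adjusted p = 1.00 from edgeR) had the largest size among the 8 genes. Much of it rested on 1 library: without Dnmt1KO replicate 1 it was -0.26, and without Dnmt1KO replicate 2 it was -1.53 with an adjusted p of 0.00387 from edgeR, in a comparison where 1061 of 12754 genes had an adjusted p under 0.05. That comparison sets Dnmt1KO replicate 1 alone against the Dnmt1fl/fl libraries and assumes that a lone library varies like the other group.

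Nfkbia, on chromosome 12 from 55489410 to 55492647, encodes IκBα, the inhibitor that is known to be renewed most quickly after NF-κB is activated. It was at 69.0 and 86.4 CPM in Dnmt1fl/fl replicates 1 and 2, and at 94.0 and 53.4 CPM in Dnmt1KO replicates 1 and 2. The Dnmt1KO libraries held the highest and the lowest level, as for Il1rn. The log2 fold change was -0.08 (standard error 0.33, 95% interval -0.90 to 0.75, adjusted p = 1.00 from edgeR), well within the pooled SD of 0.44. It was 0.28 without Dnmt1KO replicate 2, 0.10 without Dnmt1fl/fl replicate 2 and -0.54 without Dnmt1KO replicate 1. By the distance used for Tnf, the closest genes to Nfkbia over the 4 libraries were Ccdc86 (0.0226), Eef1e1 (0.0318) and Spry2 (0.0655).

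The feedback genes were also set against each other within each library, per kilobase of exon. The ratio of Tnfaip3 to Nfkbia was 0.303 and 0.172 in Dnmt1fl/fl replicates 1 and 2, and 0.149 and 0.187 in Dnmt1KO replicates 1 and 2. That of Nfkbiz to Nfkbia was 0.181 and 0.166 in Dnmt1fl/fl, 0.0493 in Dnmt1KO replicate 1 and 0.210 in Dnmt1KO replicate 2. In both ratios the genotypes overlapped. The ratio of the inhibitor gene Nfkbia to the subunit gene Rela was 1.58 and 1.85 in Dnmt1fl/fl, and 1.70 and 1.18 in Dnmt1KO, also overlapping.

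**Figure D2:**
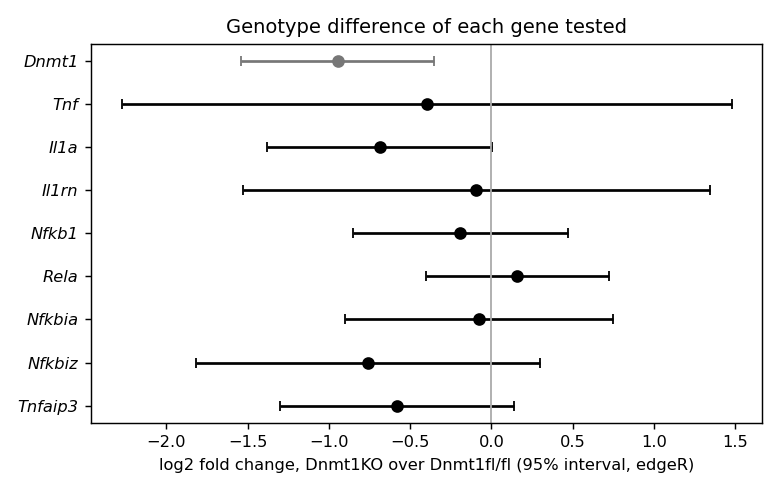
Log2 fold change of Dnmt1KO over Dnmt1fl/fl for Dnmt1 (grey) and the 8 genes tested (black), with 95% intervals from edgeR's quasi-likelihood fit of 4 libraries; 0 means no difference. The interval of Dnmt1 lies below 0, and the intervals of the 8 genes tested include 0, that of Il1a ending at 0.0056.

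**Figure D3:**
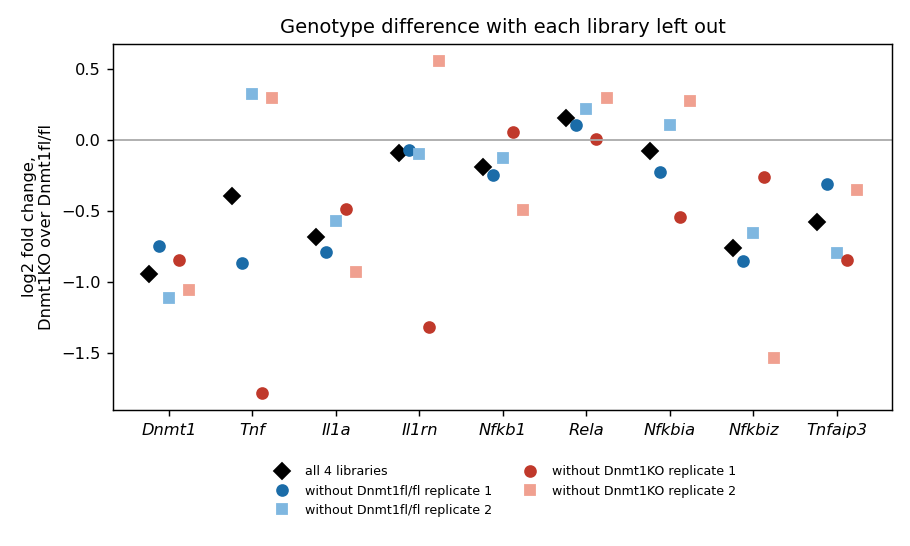
Log2 fold change of Dnmt1KO over Dnmt1fl/fl for the same genes with all 4 libraries (diamonds) and with each library left out in turn (circles and squares in the colour of the library that was left out). Dnmt1, Il1a, Nfkbiz and Tnfaip3 stay below 0 and Rela stays above it, while Tnf, Il1rn, Nfkb1 and Nfkbia cross 0.

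The levels of different genes were compared per kilobase of merged exons, so that long transcripts did not count for more. The merged length takes in every annotated exon, at 12061 bases for Nfkb1 and 3072 for Rela, and the order below rests on it. In CPM, the Dnmt1fl/fl mean of Nfkb1 was 128 and that of Rela was 86.1. In Dnmt1fl/fl macrophages the mean order was Nfkbia (48.3 CPM per kb), Il1rn (28.1), Rela (28.0), Tnfaip3 (11.1), Nfkb1 (10.6), Il1a (9.19), Nfkbiz (8.33), Tnf (3.01) and Il10 (0.140). The inhibitor Nfkbia was above Il1rn in each of the 4 libraries, although their ranges over libraries overlapped, at 33.1 to 58.4 and 11.3 to 41.4 CPM per kb. Il1rn and Rela could not be ordered, with Il1rn the higher in 2 of 4 libraries, and likewise Tnfaip3 and Nfkb1. On this scale a clear step followed Rela, whose range of 27.0 to 34.4 lay above that of Tnfaip3 at 6.19 to 13.0 CPM per kb. A second step lay between Tnf, at 0.879 to 4.18, and Il10, at 0.0372 to 0.243 CPM per kb. In Dnmt1KO macrophages the means of Nfkbia, Rela and Il1rn, at 45.8, 31.3 and 26.4 CPM per kb, were again the highest 3.

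**Figure D4:**
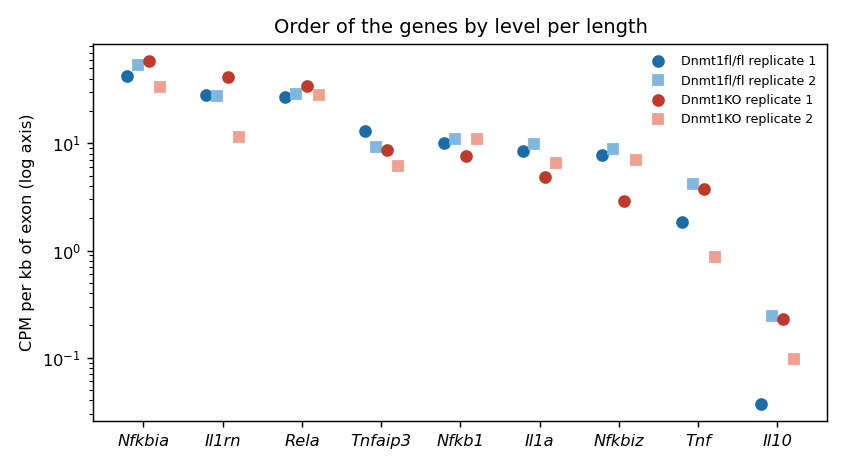
Level of the 9 genes listed in CPM per kilobase of exon (log axis) in each of the 4 libraries, ordered from left to right by the Dnmt1fl/fl mean. Nfkbia, Il1rn and Rela form the upper group except in Dnmt1KO replicate 2, where Il1rn is at 11.3, and Il10 lies apart at the bottom.

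The surrounding pathway was described with fixed lists of genes, and 0 genes of any list passed an adjusted p of 0.05 or an unadjusted p of 0.05 in edgeR. Counts of genes without overlap between genotypes are to be read against 16.7% of all genes. Among 8 other NF-κB and IκB family genes the median log2 fold change was -0.19, and 3 had non-overlapping genotypes. Nfkbid, which encodes another nuclear IκB, was lower in Dnmt1KO, at 15.4 and 17.5 CPM in Dnmt1fl/fl against 11.8 and 11.1 CPM in Dnmt1KO, a log2 fold change of -0.53 (adjusted p = 1.00 from edgeR). Nfkbil1, an IκB-like gene, was higher, at 13.0 and 13.3 CPM against 19.9 and 17.1 CPM, a log2 fold change of 0.49 (adjusted p = 1.00 from edgeR). The alternative subunit gene Nfkb2 was the third, at 54.0 and 64.1 CPM against 49.9 and 49.5 CPM.

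The 22 genes that carry the signal to NF-κB, such as the IκB kinases and the TRAF adaptors, stayed within -0.33 and 0.33 on the log2 scale, with a median of -0.03 and 3 non-overlapping genes. Traf3, an adaptor that restrains the alternative pathway, was at 25.2 and 33.0 CPM in Dnmt1fl/fl and 21.1 and 25.2 CPM in Dnmt1KO. Traf6, the adaptor used by Toll-like and IL-1 receptors, was at 41.5 and 40.3 CPM in Dnmt1fl/fl and 43.1 and 45.5 CPM in Dnmt1KO. Among 22 other negative regulators the median was -0.06, and 1 gene did not overlap: Zc3h12a, which encodes the mRNA-degrading enzyme regnase-1, at 19.7 and 23.0 CPM in Dnmt1fl/fl and 16.1 and 18.6 CPM in Dnmt1KO. The 9 receptor genes of these cytokines had a median of 0.08, and Il1rap and Il10ra, given above, were the 2 without overlap.

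Among 19 other macrophage cytokine genes, 16 were listed and 14 were tested, with a median of 0.0052. Il18bp, which encodes the binding protein that neutralises IL-18, was at 10.6 and 8.69 CPM in Dnmt1fl/fl and 13.6 and 14.9 CPM in Dnmt1KO, a log2 fold change of 0.56 (adjusted p = 1.00 from edgeR). Il12a, a subunit gene of IL-12, was at 0.536 and 0.598 CPM in Dnmt1fl/fl and at 0.101 and 0.339 CPM in Dnmt1KO, the lowest value being under the detection floor of 0.151 CPM of that library. Of 25 induced targets of NF-κB, 24 were listed and 23 tested, with a median of -0.08. Cd83, a surface protein of activated cells, was lower in both Dnmt1KO libraries, at 165 and 101 CPM in Dnmt1fl/fl and 74.9 and 84.9 CPM in Dnmt1KO, a log2 fold change of -0.73 (unadjusted p = 0.0534, adjusted p = 1.00 from edgeR). Cd40 was the second target without overlap, at 40.8 and 52.9 CPM against 37.51 and 37.45 CPM.

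The libraries of a genotype also differed among themselves in these targets. Dnmt1KO replicate 1 held the highest level of 12 of the 23 targets and Dnmt1KO replicate 2 the lowest level of 14, where these libraries held the highest level of 38.8% and the lowest level of 25.8% of all genes tested. The signalling genes ran the other way, with Dnmt1KO replicate 1 lowest for 15 of 22 (39.6% of all genes) and Dnmt1KO replicate 2 highest for 12 of 22 (26.6% of all genes). For the 8 genes followed, Dnmt1KO replicate 2 was the lowest library for 4, namely Tnf, Il1rn, Nfkbia and Tnfaip3, and Dnmt1KO replicate 1 for 3, namely Il1a, Nfkb1 and Nfkbiz. Dnmt1KO replicate 1 was an extreme for 6 of the 8 (75%), close to its share of 78.4% over all genes. Neutrophil genes were highest in the same library, at 737 CPM in sum, and their part in the levels of the NF-κB targets was not tested. Among 15 immediate early genes, which respond to handling and isolation of cells, 13 had a negative log2 fold change, with a median of -0.15 and 2 without overlap, where 6162 of all 12542 genes were negative, the median was 0.0046 and 16.7% did not overlap. Of these 2, Egr1 was at 13.5 and 11.3 CPM in Dnmt1fl/fl and 8.43 and 9.62 CPM in Dnmt1KO, and Myc was at 17.0 and 15.1 CPM against 11.9 and 12.5 CPM. Dnmt1KO replicate 2 was the lowest library for 10 of the 15, and the part of this response in the levels of Tnfaip3, Nfkbia and Tnf, which were lowest in the same library, was not tested.

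**Figure D5:**
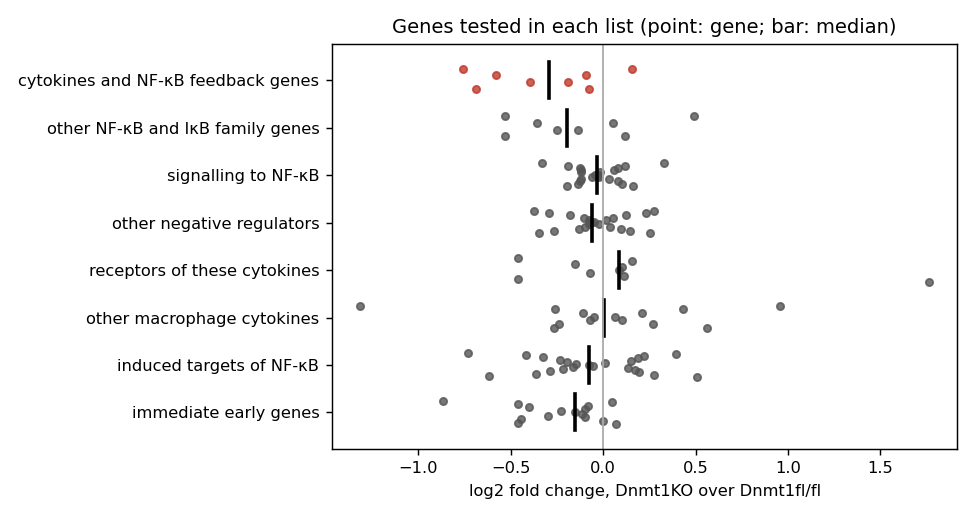
Log2 fold change of Dnmt1KO over Dnmt1fl/fl for each gene tested (points) in the 8 genes followed (red) and in 7 lists of related genes (grey), with the median of each as a bar; 0 means no difference. The medians lie between -0.29 for the genes followed and 0.08 for the receptors, and the signalling genes lie within -0.33 and 0.33.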

How the data were processed

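RNA of 4 peritoneal macrophage samples was sequenced as paired-end reads. Per the labels, the authors aligned reads to mm10 with HISAT2 2.0.5, counted them per gene with featureCounts 1.5.0-p3 and compared genotypes with DESeq2 1.20.0; the annotation, the use of strand and the sharing of ambiguous reads are not given in the sources used here. The deposited values are estimated counts, not normalized, 72.6% to 76.4% of them whole within a tolerance of 1e-09, listed only for genes above 0 in every sample. A shorter table of genes selected by the authors was not used.

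Counts were rounded, filtered with filterByExpr, scaled with TMM and compared between genotypes with the two-sided quasi-likelihood test of edgeR 4.0.16 (R 4.3.3), with Benjamini-Hochberg adjustment over 12542 genes and no replicate block. The common dispersion was 0.0837. The script was tested on simulated data. Replicates were not the same library deposited again: the chi-square per degree of freedom of their counts was 37.8 in Dnmt1fl/fl and 152 in Dnmt1KO, which any separate samples would raise above counting noise. Alternatives were limma-voom (limma 3.58.1), DESeq2 1.42.0, no filter or at least 10 counts in every sample, library size without TMM, leaving out each library, a replicate block and, added after seeing the data, a crossed pairing. An exact two-sided permutation test of 2 against 2 samples cannot give a p under 0.333. Spread and distances used log2(CPM + 0.5). The Poisson intervals of Il10 and the 3-count floor cover counting error only. Intervals of log2 fold changes come from the edgeR fit and take in the spread between replicates. Exon lengths came from GENCODE M21 (GRCm38, the build of mm10). Python 3.11.15 and SciPy 1.17.1 were used.

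The members and lists were chosen with earlier results of these data known. Named from each list were the non-overlapping genes with the largest rise and the largest fall and any past an unadjusted p of 0.05. Nfkb2, Il10ra, Cd40, Myc, Il1b and Il1r2 were added after their values were seen. Beside these, Dnmt1 and all members were named, with genes of the marker lists used to check the cell type, whatever their difference, and the 3 genes closest to Nfkbia and to Tnf, the member with the widest range.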

Additional observations from a re-analysis of the deposited data

How the results depend on the processing

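The log2 fold changes of the 8 genes tested kept their direction in all 56 values from alternatives on 4 libraries and in 26 of 32 values from leaving out a library. The 6 reversals were Tnf at 0.33 and Nfkbia at 0.10 without Dnmt1fl/fl replicate 2, Nfkb1 at 0.054 without Dnmt1KO replicate 1, and Tnf at 0.30, Il1rn at 0.56 and Nfkbia at 0.28 without Dnmt1KO replicate 2. The number of these genes with an unadjusted p under 0.05 was 0 in edgeR without a block, 1 with library size only (Tnfaip3), 1 with limma-voom (Il1a), 1 with the replicate block (Nfkbiz) and 3 with the crossed pairing (Il1a, Nfkbiz and Tnfaip3), and 0 to 4 with a library left out. An adjusted p under 0.05 was reached by 0 of them in every fit on 4 libraries and by 0 to 1 with a library left out. A log2 difference of 0.2 or more was found in 4 of them (41.5% of all genes), in 6, all lower in Dnmt1KO, with library size only, the replicate block, the crossed pairing or limma-voom (40.2% to 42.7% of all genes), and in 5 to 8 with a library left out (42.1% to 72.4%). Of these, 3 of 5 were lower and 2 higher in Dnmt1KO without Dnmt1fl/fl replicate 2, and 4 of 8 lower and 4 higher without Dnmt1KO replicate 2. On 4 libraries the values that moved by over 1.5 times were Tnf, at -0.71 in limma-voom, Il1rn, at -0.22 with library size only and -0.37 with either block or limma-voom, Nfkbia, at -0.18 with library size only and -0.12 to -0.13 with either block or limma-voom, and Rela, at 0.077 with library size only. Over all genes, 0 had an adjusted p under 0.05, against 1 in DESeq2, 0 under the replicate block, 3 when the numbers were crossed (chosen after seeing the data) and 0 to 1061 with a library left out, the highest without Dnmt1KO replicate 2. At an unadjusted p under 0.05 there were 35, against 40 with library size only, 40 in limma-voom, 39 in DESeq2, 34 under the replicate block, 60 with no filter, 297 with the crossed pairing and 43 to 3521 with a library left out (352 without Dnmt1KO replicate 1 and 3521 without Dnmt1KO replicate 2, where 4 of the 8 genes were also called). With a library left out, the lowest and highest log2 fold changes were -1.78 and 0.33 for Tnf, -1.31 and 0.56 for Il1rn, -0.49 and 0.054 for Nfkb1, 0.0037 and 0.30 for Rela, and -0.54 and 0.28 for Nfkbia. The causes were not tested.

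Same-numbered samples did not deviate together (correlation of their deviations -0.395 across genes), so the numbers were not taken as pairs. Under the replicate block the log2 fold change of Nfkbiz was -0.89 (unadjusted p = 0.0345, adjusted p = 1.00 from edgeR). Spread between replicates, at a biological coefficient of variation of 28.9%, limits these values. It was not compared with the limit from depth, which also bears on genes near the detection floor, such as Il10 and Il12a.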
